A study of Mus musculus with 6 samples.

Results

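With cepharanthine, transcripts of 31 of 54 genes of DNA replication were lower in 4T1 cells (57.4%, against 18.2% of all tested genes). Another 3 were higher (5.56%, against 20.1%). The falls were uneven by role, with 7 of 8 MCM genes but 2 of 6 ORC and licensing genes. The genes described here are the 54 named by symbol for their part in DNA replication, from the origin recognition complex to the cyclin E genes. Each of the 54 symbols matched 1 row of the 55487 genes in the deposited count table, and all 54 passed the filter on low counts, as did 13405 genes of the table. They were listed by name, without a threshold on any measured value, but with earlier results of these data known.

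The cells were 4T1, a transplantable mammary carcinoma line from a BALB/c mouse. In 3 libraries they had received cepharanthine (CEP), a bisbenzylisoquinoline plant alkaloid, at 10 µM for 12 h, and in 3 libraries the same volume of the solvent DMSO for as long. Poly(A) RNA was sequenced in bulk, so fewer cells in S phase and less of a transcript per cell cannot be told apart. Nothing in the labels says whether replicates were separate cultures, so p-values measure only the spread between these libraries.

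Counts per library summed to between 15299261 and 19411816 in CEP and between 15334482 and 19655010 in DMSO. All 8 epithelial and carcinoma markers looked up, among them Epcam, Cdh1 and Krt8, were expressed, with a summed level of 3620 to 3850 CPM (counts scaled to library size) in CEP and 4260 to 4370 CPM in DMSO; 4 were higher and 3 lower with CEP. Of 6 leukocyte markers only Cd68, which encodes a lysosomal membrane protein, passed the filter, was higher with CEP, and set most of the list's summed level, which was 38.5 to 55.0 CPM in CEP and 15.3 to 19.5 CPM in DMSO. Adgre1 and Lyz2 had 0 counts in all 6 libraries, and the leukocyte gene Ptprc had at most 3. Of 6 fibroblast markers Col1a1 and Pdgfra passed the filter, Pdgfra was higher with CEP, and the list's sum was 84.4 to 102 CPM in CEP and 62.5 to 70.1 CPM in DMSO, while Col3a1 and Lum had 0 counts. None of 5 endothelial markers passed the filter, at summed levels of 0.155 to 0.523 CPM in CEP and 0.178 to 0.587 CPM in DMSO. The part of these markers in the results was not tested.

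Replication origins are licensed in G1, when the origin recognition complex (ORC), CDC6 and CDT1 load the MCM helicase onto DNA, and geminin later blocks CDT1 so that no origin is licensed again. In S phase the kinase of CDC7 and DBF4 and the cyclin-dependent kinases turn the loaded helicase into an active one with CDC45 and GINS, and polymerases, the sliding clamp PCNA and its loader copy the strands behind it. Many of these genes are transcribed by E2F factors as cells leave G1, through promoter sites close to the letters TTTSSCGC, where S stands for C or G.

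The promoters are shown for 4 members that were lower with CEP, 2 that were higher and 1 that did not pass the test. These 7 were picked for holding such a site, so its presence in all of them is not a result. Sequences are RefSeq windows on GRCm38.p6 from 250 bases before to 50 bases after the annotated start, read 5′ to 3′ on the gene's strand. For Cdc6 and Uhrf1 that start differs from the one in the count table, 98907801 and 56303321, and the whole window shown lies inside the counted gene. Starts also differ for Mcm5, Mcm6, Gins3 and Rfc3, and are the same for Cdt1. Capitals mark the words TTTCCCGC, TTTCGCGC, TTTGCCGC and TTTGGCGC or their reverse complements, which can overlap each other. Uhrf1 also has a window at chr17:56303087-56303386, around its gene start in the count table, which holds 0 such words and is not shown.
Mcm5, lower with CEP, chr8:75109259-75109558, plus strand: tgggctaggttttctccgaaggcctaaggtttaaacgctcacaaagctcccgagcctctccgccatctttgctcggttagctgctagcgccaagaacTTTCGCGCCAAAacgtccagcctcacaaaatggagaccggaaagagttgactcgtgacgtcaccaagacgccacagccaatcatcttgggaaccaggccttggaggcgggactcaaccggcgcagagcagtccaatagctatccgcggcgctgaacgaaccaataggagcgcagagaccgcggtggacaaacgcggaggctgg
Mcm6, lower with CEP, chr1:128359656-128359955, minus strand: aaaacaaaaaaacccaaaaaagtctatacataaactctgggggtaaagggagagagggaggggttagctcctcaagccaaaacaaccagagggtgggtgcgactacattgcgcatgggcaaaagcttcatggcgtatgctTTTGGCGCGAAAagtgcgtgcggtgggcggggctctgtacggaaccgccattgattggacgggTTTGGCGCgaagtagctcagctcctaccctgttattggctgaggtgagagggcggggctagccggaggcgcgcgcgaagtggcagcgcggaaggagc
Cdc6, lower with CEP, chr11:98907901-98908200, plus strand: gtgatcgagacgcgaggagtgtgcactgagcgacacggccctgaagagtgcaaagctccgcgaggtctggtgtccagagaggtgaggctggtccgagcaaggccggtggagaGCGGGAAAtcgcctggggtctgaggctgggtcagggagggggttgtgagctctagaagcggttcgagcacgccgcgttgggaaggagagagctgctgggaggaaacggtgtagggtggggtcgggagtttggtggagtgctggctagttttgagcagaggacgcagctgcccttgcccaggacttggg
Uhrf1, lower with CEP, chr17:56304063-56304362, plus strand: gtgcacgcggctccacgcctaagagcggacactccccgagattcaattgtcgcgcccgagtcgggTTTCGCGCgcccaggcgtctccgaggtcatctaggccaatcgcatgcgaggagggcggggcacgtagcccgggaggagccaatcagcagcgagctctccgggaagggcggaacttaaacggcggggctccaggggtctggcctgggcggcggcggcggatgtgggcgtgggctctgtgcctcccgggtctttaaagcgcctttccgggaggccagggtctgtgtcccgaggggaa
Cdt1, higher with CEP, chr8:122567765-122568064, plus strand: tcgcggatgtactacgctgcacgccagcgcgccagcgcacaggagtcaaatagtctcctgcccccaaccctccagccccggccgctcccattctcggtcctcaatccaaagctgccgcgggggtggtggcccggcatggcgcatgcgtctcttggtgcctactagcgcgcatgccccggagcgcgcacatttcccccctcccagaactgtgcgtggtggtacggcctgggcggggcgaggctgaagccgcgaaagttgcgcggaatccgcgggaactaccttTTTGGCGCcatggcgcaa
Gins3, higher with CEP, chr8:95633309-95633608, plus strand: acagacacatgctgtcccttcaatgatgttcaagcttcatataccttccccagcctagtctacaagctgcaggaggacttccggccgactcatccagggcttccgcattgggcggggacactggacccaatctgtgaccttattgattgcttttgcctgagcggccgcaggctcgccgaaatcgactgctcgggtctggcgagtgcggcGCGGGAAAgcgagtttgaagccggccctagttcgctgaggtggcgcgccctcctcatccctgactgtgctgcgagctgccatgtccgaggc
Rfc3, did not pass, chr5:151651159-151651458, minus strand: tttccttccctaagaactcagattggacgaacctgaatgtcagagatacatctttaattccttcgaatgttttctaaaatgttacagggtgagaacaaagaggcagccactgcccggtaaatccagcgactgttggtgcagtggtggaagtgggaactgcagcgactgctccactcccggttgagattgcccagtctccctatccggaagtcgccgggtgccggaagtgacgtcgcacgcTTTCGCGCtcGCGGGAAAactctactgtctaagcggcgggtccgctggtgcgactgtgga

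Such a word lay in at least 1 window of 18 of the 44 members with a promoter in the table (40.9%), against 704 of 27025 genes in all (2.6%) and 463 of the 9606 tested genes found there (4.82%). By outcome it was found in 10 of the 25 matched members that were lower, 2 of the 3 that were higher and 6 of the 16 that did not pass. The letters CCAAT, the core of the NF-Y site, were found on either strand in 27 of the 44 members (61.4%), against 41.1% of all genes and 43.4% of tested genes. TTTGAA, the core of the cell cycle homology region of mitotic promoters, was found in 8 of the 44 (18.2%), against 20.2% of all genes and 14.1% of tested genes. In Mcm6 the first pair of words overlap and start 110 and 106 bases before the annotated start, and the third starts 47 bases before it. The words in Cdt1 and in Rfc3 lie close to the start, at base 33 of the transcript in Cdt1 and at 10 bases before and base 1 in Rfc3. These matches describe letters in a window and show neither binding nor a cause.

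With CEP 31 of the 54 genes were lower, 3 were higher and 20 did not pass a quasi-likelihood test in edgeR, at an adjusted p under 0.05 by Benjamini-Hochberg over all genes tested. That is 57.4% lower and 5.56% higher, where 18.2% of the 13405 tested genes were lower, 20.1% were higher and 38.2% changed in either direction. The fitted value was below 0 for 46 members (85.2%), against 48.9% of tested genes. The median log2 fold change of the 54 genes was -0.20, against 0.0083 over all tested genes. Changes were modest: the 31 falls ran from -0.15 to -0.52 on the log2 scale, or -9.69% to -30.2%, and 0 members changed 2-fold. Their median of -0.31 was close to the -0.30 of all 2434 genes that fell. Groups were fully apart for 39 members (72.2%), against 49.9% of all tested genes. Many genes given below with values in every library were picked by smallest adjusted p. Groups that lie apart in those genes are therefore not separate support.

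**Figure D1:**
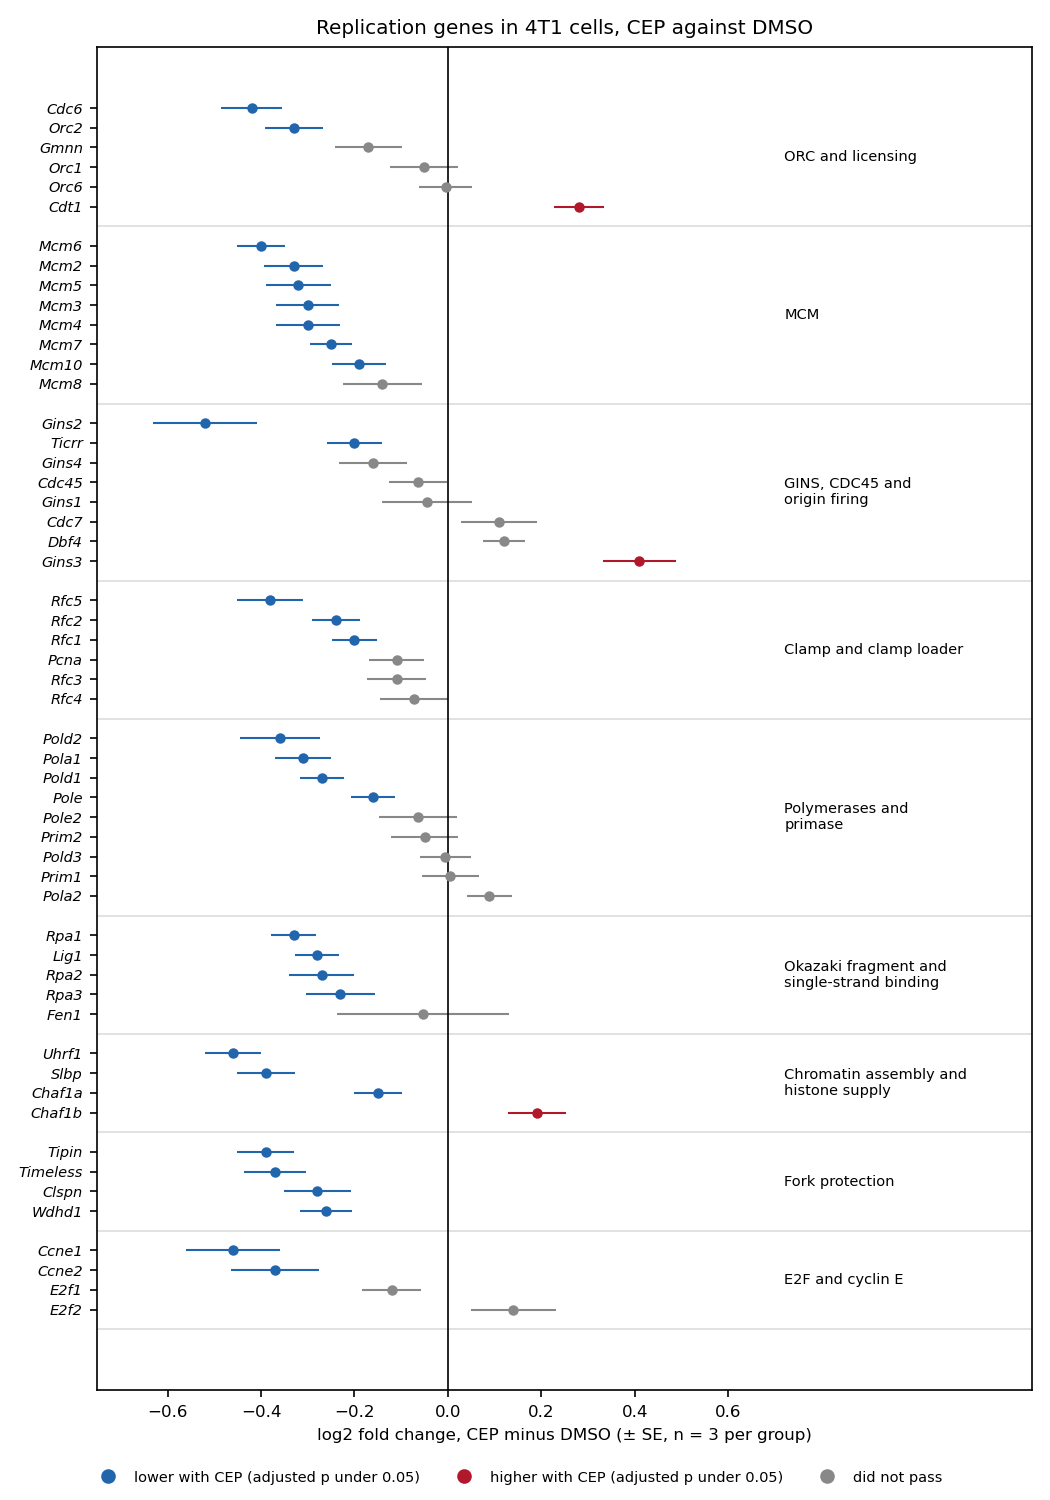
Log2 fold change, CEP minus DMSO, of the 54 replication genes in 9 groups by role, with SE (n = 3 per group). Blue points were lower, red points higher and grey points did not pass; 31 points are blue, 3 are red and the lowest is Gins2 at -0.52.

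Among the licensing genes, Cdc6 fell and Cdt1 rose, although both encode loaders of the MCM helicase. Cdc6 (ENSMUSG00000017499, chromosome 11, 98907801 to 98923940, GRCm38.p6) stood at 57.7, 50.5 and 50.9 CPM in CEP replicates 1, 2 and 3, against 72.1, 67.2 and 73.6 CPM in DMSO replicates 1, 2 and 3. The groups did not overlap, and the log2 fold change was -0.42 ± 0.0658 (SE, adjusted p = 0.000215). Cdt1 (ENSMUSG00000006585, chromosome 8, 122568015 to 122573554) stood at 187, 164 and 167 CPM in CEP, against 142, 140 and 145 CPM in DMSO. Every CEP library was above every DMSO library, by 0.28 ± 0.0540 on the log2 scale (adjusted p = 0.00109). That rise was 0.17 once trends with exon length and GC content had been taken out (adjusted p = 0.0448), an alternative chosen after seeing the data.

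Gmnn, which encodes geminin, the inhibitor of CDT1, had 44.2, 38.7 and 38.6 CPM in CEP and 47.2, 45.7 and 43.5 CPM in DMSO. CEP replicate 1 lay inside the DMSO range, and the difference of -0.17 ± 0.0717 did not pass (adjusted p = 0.0826). Without CEP replicate 1 it was -0.25 and passed (adjusted p = 0.00241), as it did with upper quartile scaling (adjusted p = 0.0416). Within each library the log2 ratio of Cdt1 to Gmnn reads, which does not depend on scaling, was 2.08, 2.08 and 2.11 in CEP and 1.59, 1.62 and 1.73 in DMSO. The ratio was 0.44 higher in CEP with no overlap (exact two-sided permutation p = 0.1, the smallest that 20 assignments allow). The ratio of Cdt1 to Cdc6, chosen after the values were seen and not tested, averaged 1.70 ± 0.00707 in CEP and 1.01 ± 0.0482 in DMSO (SD, n = 3 each).

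Of the ORC genes among the members only Orc2 passed, and differences between these genes were not tested. Orc2, for a core subunit that stays with the complex, had 51.2, 47.5 and 46.2 CPM in CEP and 58.5, 62.8 and 61.3 CPM in DMSO, a fall of -0.33 ± 0.0619 (adjusted p = 0.000803). Its exons overlap those of Nif3l1 on the opposite strand over 29.8% of their length, and Nif3l1 was itself lower, at -0.47 ± 0.116 (adjusted p = 0.00908). Orc1, the subunit that comes and goes with the cell cycle, did not pass at -0.051 ± 0.0723, with all 3 CEP values of 25.4 to 26.2 CPM just under the DMSO values of 26.5 to 27.1 CPM. Orc6 did not pass either, at 55.9 ± 2.06 CPM in CEP against 56.0 ± 0.507 CPM in DMSO (SD, n = 3 each).

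The 6 genes of the MCM2 to MCM7 helicase ring fell together, where 18.2% of all tested genes fell. Mcm6 (ENSMUSG00000026355, chromosome 1, 128331590 to 128359664), whose promoter is shown with 3 capitalised words, had 284, 268 and 266 CPM in CEP and 337, 367 and 375 CPM in DMSO. Its fall of -0.40 ± 0.0521 had the lowest adjusted p of the 54 genes, 4.47e-05. Mcm2 had 255, 218 and 212 CPM in CEP, against 284, 279 and 296 CPM in DMSO, a log2 fold change of -0.33 ± 0.0637. Mcm3 had 291, 248 and 236 CPM in CEP, against 310, 318 and 329 CPM in DMSO, or -0.30 ± 0.0670. CEP replicate 1 was the highest of the CEP libraries and still below the DMSO libraries for each of these genes.

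Mcm4 stood at 240, 197 and 199 CPM in CEP, against 257, 257 and 268 CPM in DMSO, with a fold change of -0.30 ± 0.0681. Mcm5 stood at 306, 260 and 245 CPM in CEP, against 333, 332 and 348 CPM in DMSO, or -0.32 ± 0.0692. Mcm7, whose gene also carries microRNAs in an intron, was the tightest, with 276, 266 and 261 CPM in CEP, against 318, 320 and 317 CPM in DMSO, and fell by 0.25 ± 0.0446 on the log2 scale. Adjusted p-values of these 6 genes ran up to 0.00421, for Mcm4. Per kilobase of exon, the 6 genes ranged from 59.1 to 93.6 CPM in CEP and from 72.6 to 124 CPM in DMSO. The highest, Mcm6, had 1.58 times the level of the lowest, Mcm4, in CEP, against 1.71 times in DMSO.

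**Figure D2:**
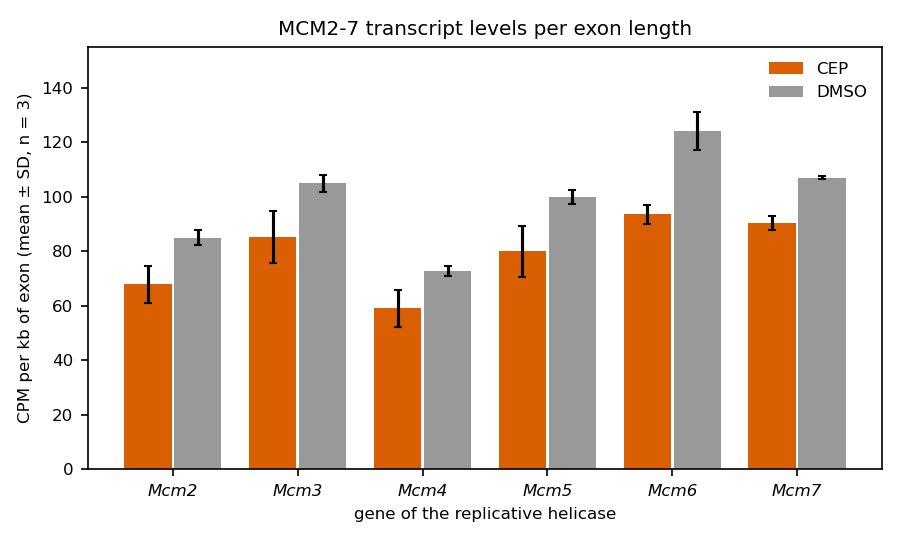
Mean level of the 6 helicase ring genes in CPM per kilobase of exon, CEP beside DMSO, with SD over 3 libraries. Each CEP bar is below its DMSO bar, and Mcm6 is the highest gene in both groups at 93.6 in CEP and 124 in DMSO.

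Mcm10, for a factor that helps activate the helicase, fell by 0.19 ± 0.0573 to 81.9 ± 5.61 CPM in CEP, against 93.6 ± 2.31 CPM in DMSO (SD, n = 3 each, adjusted p = 0.0166). This call ended without CEP replicate 2 or 3 or DMSO replicate 1 or 2 (adjusted p = 0.0705, 0.0772, 0.0646 and 0.054, alternatives 2.49e-05 to 0.0772). Mcm8, a paralog that acts in recombination and not in the ring, did not pass at -0.14 ± 0.0851.

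The 4 GINS genes, whose products form a single complex of one copy each, did not move alike. Gins2 (ENSMUSG00000031821, chromosome 8, 120578633 to 120589304) had 26.2, 24.4 and 19.4 CPM in CEP and 29.4, 34.9 and 36.2 CPM in DMSO. Its fall of -0.52 ± 0.111 was the largest among the members (adjusted p = 0.00263). Gins3 (ENSMUSG00000031669, chromosome 8, 95633453 to 95645060) had 25.5, 25.6 and 25.5 CPM in CEP, against 18.8, 19.5 and 19.1 CPM in DMSO. These values rose by 0.41 ± 0.0772, the largest rise among the members (adjusted p = 0.000803), and the groups did not overlap for either gene.

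Gins1 at -0.044 ± 0.0962 and Gins4 at -0.16 ± 0.0725 did not pass (adjusted p = 0.747 and 0.0934), though Gins4 did without CEP replicate 1 (-0.24, adjusted p = 0.00418) and with upper quartile scaling (adjusted p = 0.0449). The log2 ratio of Gins3 to Gins2 reads, chosen after the values were seen and not tested, was -0.038, 0.064 and 0.39 in CEP and -0.64, -0.84 and -0.92 in DMSO. Gins2 shares 67.3% of its exon length with Gse1 on the opposite strand. Gse1 went the other way, at 0.46 ± 0.0668 (adjusted p = 0.000119).

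Of the other genes of origin firing, Ticrr, which encodes treslin, a factor that brings CDC45 to the helicase, had 49.0, 50.6 and 48.2 CPM in CEP and 57.6, 57.8 and 54.9 CPM in DMSO. It fell by 0.20 ± 0.0582 on the log2 scale (adjusted p = 0.0126), a call that ended without DMSO replicate 2 (adjusted p = 0.0553, alternatives 0.00223 to 0.0553). Cdc45 did not pass at -0.064 ± 0.0620, its level 71.5 ± 4.92 CPM in CEP against 74.8 ± 3.48 CPM in DMSO (SD, n = 3 each). Both genes of the firing kinase had positive values, at 0.11 ± 0.0811 for the catalytic subunit gene Cdc7 and 0.12 ± 0.0458 for its activator gene Dbf4, and neither passed (adjusted p = 0.304 and 0.0596). The Dbf4 libraries did not overlap, at 178 to 186 CPM in CEP against 163 to 172 CPM in DMSO. Without CEP replicate 1 the adjusted p was 0.0312 for Cdc45 (-0.14), 0.0137 for Cdc7 (0.19) and 0.0138 for Dbf4 (0.12), and Dbf4 also passed with library totals (0.0485) and with a filter at 1 CPM (0.0487).

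**Figure D3:**
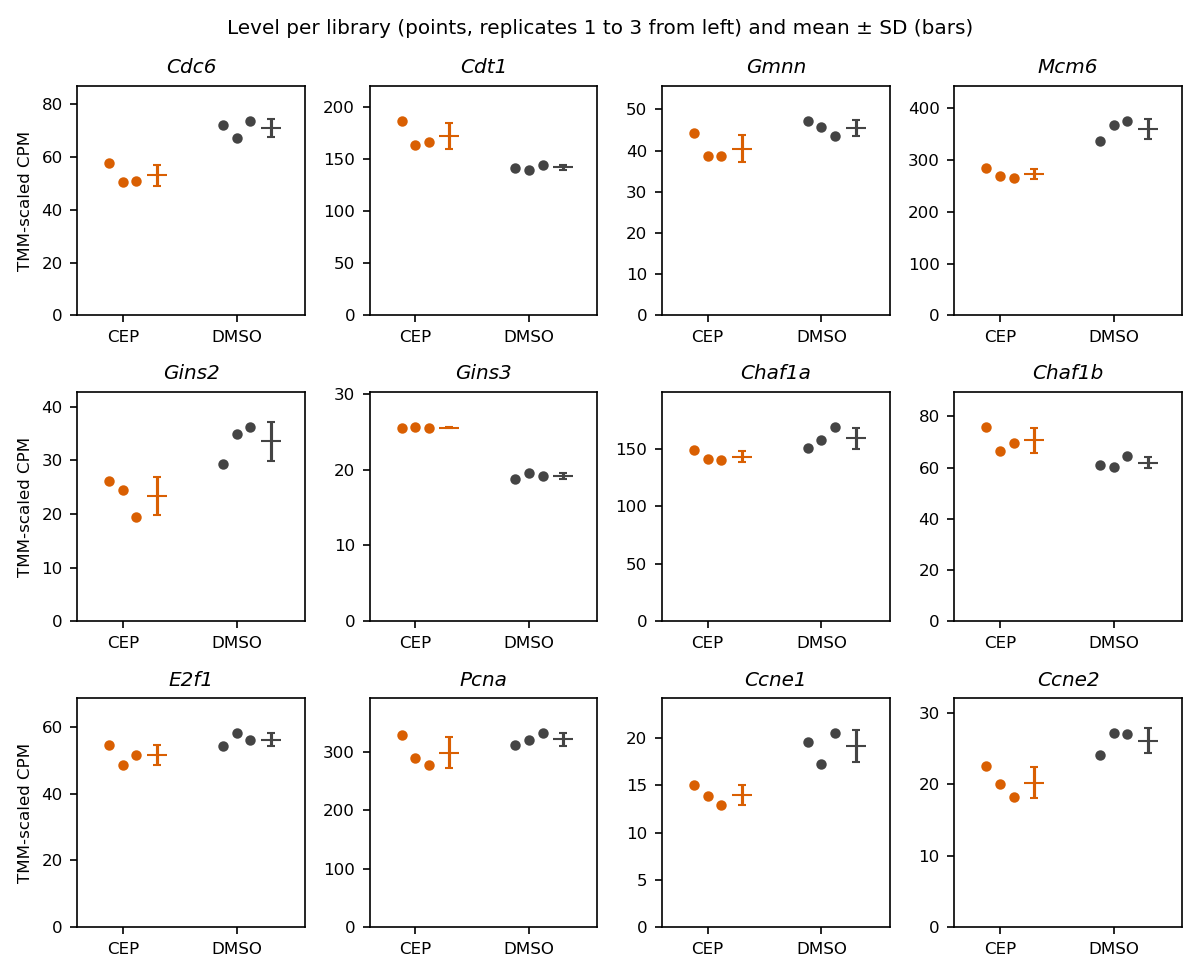
TMM-scaled CPM of 12 replication genes in each library, CEP left of DMSO, with mean ± SD (n = 3 each) beside the points. Cdt1, Gins3 and Chaf1b stand higher in CEP, Cdc6, Mcm6, Gins2, Chaf1a, Ccne1 and Ccne2 stand lower, and for Gmnn, E2f1 and Pcna CEP replicate 1 overlaps the DMSO libraries.

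Pcna, the gene of the sliding clamp, did not pass, although per kilobase of exon it had the highest level of the 54 genes, 196 CPM in CEP and 212 CPM in DMSO. It had 328, 289 and 278 CPM in CEP and 311, 320 and 332 CPM in DMSO, a difference of -0.11 ± 0.0591 (adjusted p = 0.165). CEP replicate 1 alone lay among the DMSO values, and without it the difference was -0.20 (adjusted p = 5.68e-05, alternatives 5.68e-05 to 0.505). In the clamp loader, 3 of the 5 subunit genes fell, where 18.2% of all tested genes fell. The small subunit gene Rfc5 had 79.4, 73.1 and 66.1 CPM in CEP and 88.3, 93.8 and 102 CPM in DMSO (-0.38 ± 0.0708, adjusted p = 0.000958).

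Rfc2 had 85.2, 83.3 and 78.8 CPM in CEP, against 98.5, 96.1 and 97.1 CPM in DMSO (-0.24 ± 0.0509, adjusted p = 0.00207). Rfc1, the large subunit gene, had 172, 163 and 160 CPM in CEP, against 183, 187 and 197 CPM in DMSO (-0.20 ± 0.0491, adjusted p = 0.0057). None of these 3 genes had overlapping groups. Rfc3 and Rfc4 did not pass at -0.11 ± 0.0638 and -0.072 ± 0.0726 (adjusted p = 0.182 and 0.461). Exons of Rfc2, Rfc4 and Rfc5 overlap those of Lat2, Eif4a2 and Wsb2 on the opposite strand by 15.1%, 12.7% and 10.7%, and none of those partners passed (0.37, -0.042 and -0.032).

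Of the 9 polymerase and primase genes 4 fell (44.4%), 0 rose and 5 did not pass, where 18.2% of all tested genes fell and 20.1% rose. Pold1, the catalytic subunit of the lagging-strand polymerase delta, had 124, 118 and 120 CPM in CEP and 150, 143 and 143 CPM in DMSO. Its fall of -0.27 ± 0.0467 (adjusted p = 0.000462) was -0.42 with length and GC corrected. Pold2, a second polymerase delta subunit gene, had 89.2, 73.3 and 69.8 CPM in CEP and 93.6, 98.0 and 107 CPM in DMSO (-0.36 ± 0.0853, adjusted p = 0.00628). Pola1, the catalytic subunit of polymerase alpha, which starts each strand with primase, had 48.6, 47.5 and 44.6 CPM in CEP and 57.1, 58.5 and 58.3 CPM in DMSO (-0.31 ± 0.0595, adjusted p = 0.00109). In all 3 the lowest DMSO library was above the highest CEP library.

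Pole, the catalytic subunit of the leading-strand polymerase epsilon, averaged 172 ± 6.60 CPM in CEP and 193 ± 5.41 CPM in DMSO (SD, n = 3 each) and fell by 0.16 ± 0.0476 on the log2 scale (adjusted p = 0.0145). This call ended without CEP replicate 2 or 3 or DMSO replicate 2 or 3 (adjusted p = 0.0708, 0.0533, 0.0812 and 0.0526, alternatives 4.02e-05 to 0.0812). The log2 ratio of Pole to Pold1 was 0.53, 0.51 and 0.49 in CEP and 0.32, 0.47 and 0.42 in DMSO, 0.11 higher in CEP (exact two-sided permutation p = 0.1, the smallest possible). That difference was 0.065 without DMSO replicate 1. The accessory genes Pole2, Pold3 and Pola2 and the primase genes Prim1 and Prim2 did not pass, at values between -0.064 for Pole2 and 0.089 for Pola2. Pole2 was -0.15 without CEP replicate 1, -0.13 without DMSO replicate 1 and -0.0096 without CEP replicate 3. Pold3 and Prim1 stood within 0.006 of 0.

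Transcripts of genes for single-strand binding and strand joining were lower. Rpa1, the large subunit of replication protein A, which coats single-stranded DNA, had 165, 161 and 153 CPM in CEP and 194, 206 and 201 CPM in DMSO (-0.33 ± 0.0484, adjusted p = 0.000127). Rpa2 had 53.8, 47.8 and 44.9 CPM in CEP, against 60.5, 57.9 and 58.5 CPM in DMSO (-0.27 ± 0.0693, adjusted p = 0.00672). Lig1, the ligase that seals Okazaki fragments, had 151, 148 and 151 CPM in CEP, against 173, 185 and 187 CPM in DMSO (-0.28 ± 0.0473, adjusted p = 0.000439). The groups were apart for all 3 genes, as they were for 49.9% of all tested genes.

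Rpa3, the smallest subunit gene, fell by 0.23 ± 0.0741 (adjusted p = 0.0255), a call that ended without CEP replicate 2 or 3 or DMSO replicate 1 or 3 (adjusted p = 0.0926, 0.0568, 0.0764 and 0.129) or with length and GC corrected (0.0808, alternatives 0.00481 to 0.129). Fen1, the flap nuclease of Okazaki fragments, was counted at only 4.14 to 5.96 CPM in CEP and 4.30 to 6.11 CPM in DMSO, with 535 reads over all libraries, and did not pass at -0.054 ± 0.184. In the GENCODE M21 annotation 78.8% of its exon length lies opposite exons of Gm10143, and whether counting used strand is not stated, here and for the other overlapping pairs named.

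In chromatin assembly behind the fork, the genes of the large and middle subunits of CAF-1 parted. Chaf1a, for the large subunit of this histone chaperone, had 149, 141 and 140 CPM in CEP and 151, 158 and 169 CPM in DMSO, a fall of -0.15 ± 0.0520 (adjusted p = 0.0372). Chaf1b, the middle subunit, had 75.9, 66.4 and 69.7 CPM in CEP and 61.1, 60.4 and 64.5 CPM in DMSO, a rise of 0.19 ± 0.0617 (adjusted p = 0.0256). Neither call was stable. Chaf1a did not pass with DESeq2, with the replicate number as a block, or without CEP replicate 2 or 3 or DMSO replicate 2 or 3 (adjusted p = 0.0504, 0.066, 0.123, 0.112, 0.0898 and 0.209, alternatives 0.000446 to 0.209).

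Chaf1b did not pass with upper quartile scaling, with DESeq2, without CEP replicate 1, without DMSO replicate 1 or 2, or with length and GC corrected (adjusted p = 0.05, 0.056, 0.074, 0.0865, 0.107 and 0.0581, alternatives 0.0203 to 0.107), and its value without CEP replicate 1 was 0.12. The log2 ratio of Chaf1b to Chaf1a, chosen after the values were seen and not tested, averaged -1.03 ± 0.0567 in CEP and -1.36 ± 0.0501 in DMSO (SD, n = 3 each). Chaf1a exons overlap those of Ubxn6 on the opposite strand over 52.5% of their length in GENCODE M21, and Ubxn6 was higher by 0.33 ± 0.107.

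Uhrf1 (ENSMUSG00000001228, chromosome 17, 56303321 to 56323486), which brings the maintenance methyltransferase to newly copied DNA, had 247, 214 and 207 CPM in CEP and 305, 298 and 316 CPM in DMSO. This fall, -0.46 ± 0.0609, had the second lowest adjusted p among the members, 5.86e-05. Slbp, which encodes the protein that binds the stem-loop of replication-dependent histone mRNAs, had 77.6, 70.4 and 65.3 CPM in CEP and 92.9, 92.6 and 94.0 CPM in DMSO (-0.39 ± 0.0618, adjusted p = 0.000241). Neither gene had overlapping groups.

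All 4 genes of fork protection fell, where 18.2% of all tested genes fell. Tipin and Timeless encode partners in a complex that travels with the fork and couples the helicase to the polymerases. Tipin had 74.6, 65.3 and 65.1 CPM in CEP and 92.2, 88.7 and 87.9 CPM in DMSO (-0.39 ± 0.0609, adjusted p = 0.000212). Timeless had 60.6, 51.3 and 53.4 CPM in CEP, against 70.0, 69.7 and 74.1 CPM in DMSO (-0.37 ± 0.0668, adjusted p = 0.000639). In these 2 genes even the highest CEP library was below the lowest DMSO library.

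Wdhd1, which encodes the AND-1 hub that ties polymerase alpha to the helicase, had 55.8, 55.3 and 56.2 CPM in CEP and 66.1, 69.9 and 65.1 CPM in DMSO (-0.26 ± 0.0557, adjusted p = 0.00193). Clspn, for claspin, the mediator of checkpoint kinase activation at stalled forks, averaged 79.7 ± 8.45 CPM in CEP and 96.8 ± 5.64 CPM in DMSO (SD, n = 3 each), or -0.28 ± 0.0717 (adjusted p = 0.00763). The 4 genes stayed past the test in each of the 15 alternatives at the 0.05 threshold.

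Of the upstream regulators, both cyclin E genes, which activate CDK2 at the start of S phase, fell and neither E2F gene passed. Ccne1 had 15, 13.9 and 12.9 CPM in CEP and 19.6, 17.2 and 20.5 CPM in DMSO (-0.46 ± 0.101, adjusted p = 0.0027). Ccne2 had 22.6, 20 and 18.2 CPM in CEP and 24.1, 27.2 and 27.1 CPM in DMSO (-0.37 ± 0.0939, adjusted p = 0.00675), and 17.4% of its exon length overlaps Ints8 on the opposite strand, which did not pass at -0.12 ± 0.0771. Every CEP library was below every DMSO library for both genes. Their log2 ratio, Ccne1 to Ccne2, averaged -0.54 ± 0.0491 in CEP and -0.46 ± 0.183 in DMSO (SD, n = 3 each), a difference with an exact permutation p of 0.5, two-sided.

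E2f1, an activator of S-phase genes, had 54.5, 48.4 and 51.6 CPM in CEP and 54.3, 58.1 and 55.9 CPM in DMSO, a difference of -0.12 ± 0.0629 (adjusted p = 0.145). It passed without CEP replicate 1 (-0.18, adjusted p = 0.0151) and with length and GC corrected (-0.24, adjusted p = 0.011, alternatives 0.011 to 0.426). E2f2, a related activator, had 18.3, 20.2 and 19.5 CPM in CEP and 16.6, 17.1 and 18.8 CPM in DMSO, or 0.14 ± 0.0908 (adjusted p = 0.236). The groups overlapped for both genes.

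**Figure D4:**
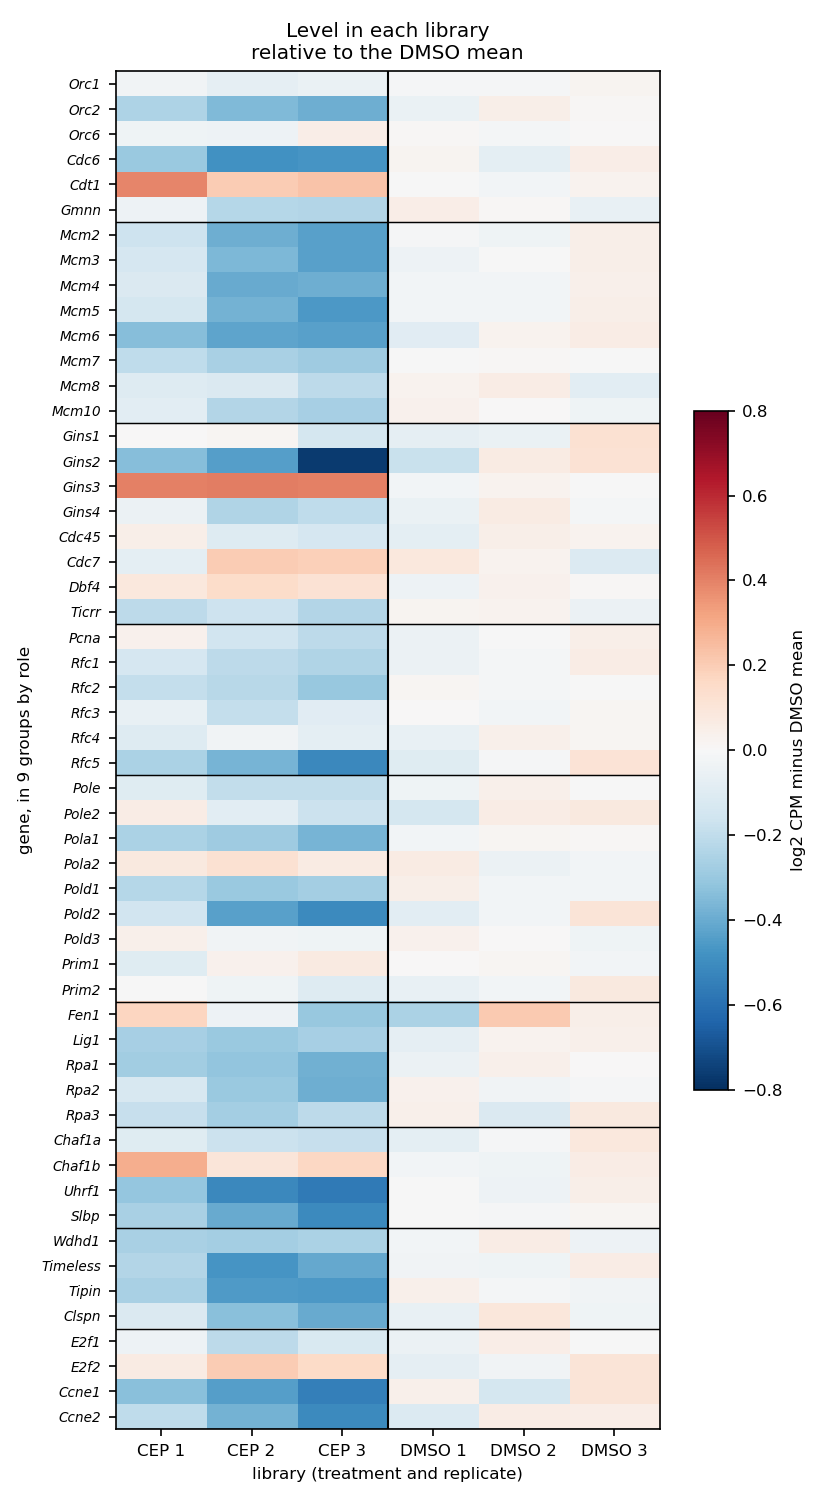
Level of each of the 54 genes in each library as log2 CPM minus the mean of the DMSO libraries, CEP columns left and DMSO columns right, in 9 groups by role. Most CEP squares are blue (lower) and paler in CEP replicate 1, while the rows of Cdt1, Gins3 and Chaf1b are red (higher).

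The CEP libraries were not equally far from DMSO. The mean of the 54 genes stood at -0.10, -0.20 and -0.23 in CEP replicates 1, 2 and 3 and at -0.028, 0.005 and 0.023 in the DMSO replicates, as log2 CPM relative to the DMSO mean. CEP replicate 1 was the highest CEP library for 29 of the 31 members that fell (93.5%), against 71.4% of all 2434 genes that fell. The same library was also the highest for 2 of the 3 that rose, Cdt1 and Chaf1b. With it left out, 36 members were lower and 4 higher, and 6905 of 13650 tested genes changed (50.6%), against 38.2% with all libraries. By role, the median log2 fold change was lowest for fork protection (-0.32) and the MCM genes (-0.30) and nearest 0 for GINS, CDC45 and origin firing (-0.054) and the polymerases (-0.064). The median was -0.27 both for Okazaki fragment and single-strand binding genes and for chromatin assembly, -0.24 for the E2F and cyclin E genes, -0.15 for the clamp and its loader and -0.11 for the licensing genes. Differences between these small groups were not tested.

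Of 32 other replication factors, listed for context and all tested, 12 fell (37.5%), 0 rose and 20 did not pass, with a median of -0.16. Over all tested genes 18.2% fell and 20.1% rose. Without CEP replicate 1, 21 of the 32 fell, while 50.6% of all tested genes changed in either direction. Top2a, the topoisomerase that untangles sister chromatids, fell by 0.29 ± 0.0514 on the log2 scale, the histone chaperone gene Asf1b by 0.37 ± 0.0688, the replication timing gene Rif1 by 0.26 ± 0.0491 and Dtl, which directs degradation of CDT1, by 0.29 ± 0.0590. Of 15 genes of deoxynucleotide supply 13 fell (86.7%) and 0 rose, with a median of -0.33. Thymidine kinase gene Tk1 stood at -0.41 ± 0.0438, the dUTPase gene Dut at -0.47 ± 0.0531, the ribonucleotide reductase gene Rrm1 at -0.42 ± 0.0580 and the CTP synthase gene Ctps at -0.35 ± 0.0524.

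Mitotic genes were also lower: 14 of 20 fell (70.0%, against 18.2% of all tested genes) and 0 rose, with a median of -0.22. Cenpf, Cdk1, Bub1b and Mki67 stood at -0.44 ± 0.0518, -0.37 ± 0.0486, -0.33 ± 0.0449 and -0.37 ± 0.0557. Regulators of the G1 to S step were mixed. Of 25 tested from 28 listed, 9 fell (36.0%), 3 rose (12.0%) and 13 did not pass, with a median of -0.094. The share that rose was below the 20.1% of all tested genes. The falls included Skp2 (-0.46 ± 0.0614), which encodes the ubiquitin ligase subunit that targets the inhibitor p27, Ccna2 (-0.43 ± 0.0579) for cyclin A, E2f4 (-0.35 ± 0.0540) for a repressor E2F and Tfdp1 (-0.31 ± 0.0549) for its dimer partner. The rises were Cdkn1b (0.31 ± 0.0628) for p27 itself, Cdkn2c (0.31 ± 0.0612) for the CDK4 and CDK6 inhibitor p18, and Tfdp2 (0.22 ± 0.0675) for another E2F dimer partner. Adjusted p-values of the genes named from these 4 lists ran up to 0.0167, for Tfdp2.

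**Figure D5:**
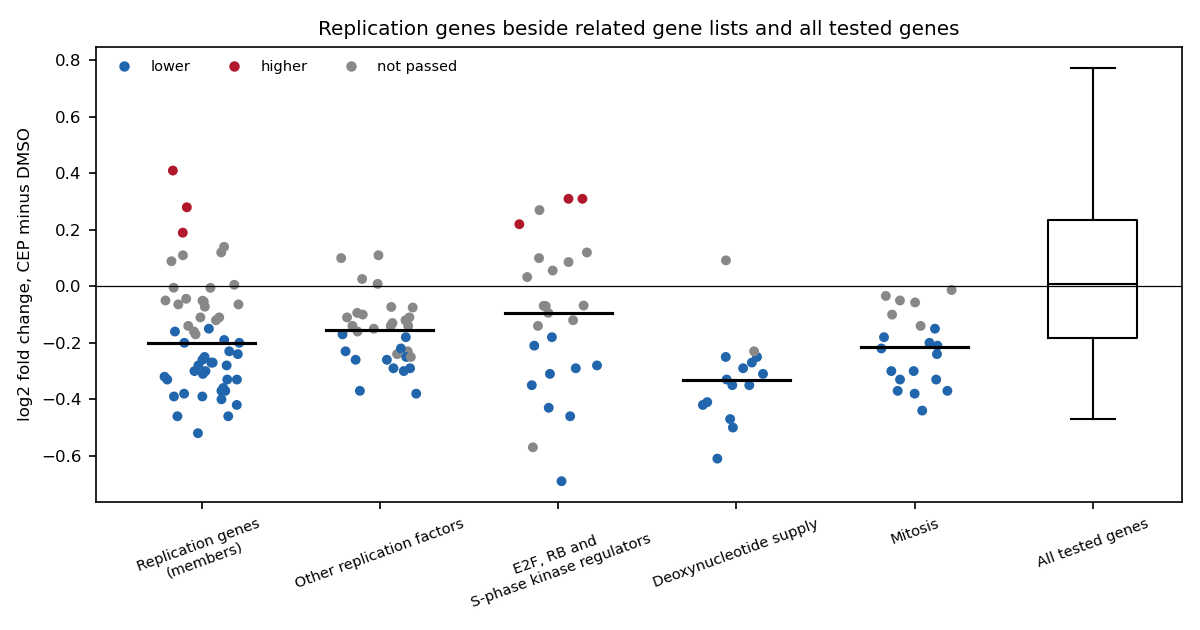
Log2 fold change, CEP minus DMSO, of the replication genes, of 4 related gene lists and of all 13405 tested genes. Points are genes coloured by outcome, bars are list medians (-0.20 for the replication genes, -0.33 for deoxynucleotide supply), and the box shows the quartiles with whiskers at the 5th and 95th percentiles.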

How the data were processed

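Bulk RNA-seq of 6 libraries was analysed, with groups taken from sample titles. The library source label reads single cell, but the protocols describe bulk RNA, so the libraries were treated as bulk. Per the labels' protocols, poly(A) RNA was made into stranded dUTP libraries. Per the file headers gene positions are on GRCm38.p6. The authors deposited whole-number read counts per Ensembl gene, not normalised. The submitters' processing notes name HISAT2, HISAT, HTSeq and DESeq2; their roles and versions and the strand setting of counting are not stated there. Exon lengths are those of the deposited table.

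Genes passing filterByExpr (minimum count 10, total 15) were TMM-scaled and tested with edgeR 4.0.16 (R 4.3.3, robust quasi-likelihood, group only, Benjamini-Hochberg over 13405 genes). SE is the absolute log2 fold change over the root of F. Ratios used counts plus 0.5. DESeq2 1.42.0, limma 3.58.1 voom, other scalings and filters, a replicate block, each library left out and a threshold of 0.01 were alternatives; removal of length and GC trends (loess span 0.5) was added after the data were seen. Members and lists were chosen with earlier results of these data known. Values in every library are given for up to 3 lower and 1 higher member per role by smallest adjusted p, and for a fixed set of licensing, MCM, clamp, E2F and cyclin E genes, and up to 4 genes per direction from each context list. Python was 3.11.15. No pair of replicates agreed within sampling noise (chi-square per degree of freedom 1.81 to 10.9). Pairs with CEP replicate 1 gave 9.03 and 10.9, CEP replicates 2 and 3 gave 2.27, and DMSO pairs gave 1.81 to 3.53.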

Additional observations from a re-analysis of the deposited data

How the results depend on the processing

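The count of members lower with CEP was 26 to 33 across the alternatives that kept all libraries and 27 to 36 with 1 library left out, and the count higher was 2 to 4 in both. The members' median log2 fold change ran from -0.18 to -0.26. Of the 31 falls 26 passed in each of the 15 alternatives at the 0.05 threshold; Chaf1a, Mcm10, Pole, Rpa3 and Ticrr did not. Over all genes 5125 changed, 3735 to 6905 with 1 library left out and 3307 at a threshold of 0.01. The ratio of Cdt1 to Gmnn was 0.42 to 0.49 higher in CEP with 1 library left out, that of Ccne1 to Ccne2 -0.18 to -0.0052, and that of Pole to Pold1 0.065 to 0.14. Replicate numbers are shared by the groups, and whether they pair the libraries is not known. Same-numbered libraries deviated from their group means with correlations of -0.045, 0.075 and -0.125, and not every library correlated best with its own number. The largest correlation, 0.133, was between CEP replicate 1 and DMSO replicate 3. Deviations within a group sum to 0, so these correlations depend on one another, and pairing was not tested with them. With the replicate number as a block, 30 members were lower and 3 higher, and 4896 genes changed in all. The mean over same-numbered libraries equals the difference of group means, so a block could not move the 3 ratios (0.44, -0.081 and 0.11). For these ratios an exact two-sided permutation test by sign flips within replicate numbers gave p = 0.25, 0.75 and 0.25. With 3 replicate numbers, 0.25 is the smallest p that sign flips allow. Among members that did not pass, values near 0 changed sign. Prim1, at 0.0055, was -0.0013 with RLE scaling and with DESeq2, -0.025 with upper quartile scaling and -0.0034 with no low-count filter. Orc6, at -0.0049, was 0.011 with length and GC corrected. With 1 library left out, Prim1 ran from -0.031 (without CEP replicate 3) to 0.042, and was also -0.0095 and -0.0089 without CEP replicate 2 and DMSO replicate 3. Orc6 ran from -0.035 to 0.011 (without CEP replicate 2), Pold3 from -0.044 to 0.0097 (without CEP replicate 3), Gins1 from -0.086 to 0.022 (without DMSO replicate 3) and Fen1 from -0.21 to 0.074 (without CEP replicate 3). The cause was not tested. Fen1 had the fewest reads of the members, 535 in all.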
